A study of Saccharomyces cerevisiae with 24 samples.

Results

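The response of budding yeast to bleomycin was measured on 3 arrays, each set against the array of control cells from the same day, so the comparison rests on 6 of the 24 arrays of the series. The arrays were chosen by title, and all 9275 probe sets that are not manufacturer's controls were tested, out of 9335 in the table. The strain was BY4730, a haploid laboratory strain of mating type a that lacks LEU2, MET17 and URA3. The bleomycin cultures received the drug for 120 min at 0.15 U/ml (replicates 1 and 3) or 0.1 U/ml (replicate 2), as the array titles give it, whereas the protocol text names 0.15 U/ml only. The 3 control cultures were mock-treated with DMSO or left in medium for the same time, and the labels do not tell which control array had which. The other arrays of the series followed MMS, cisplatin, NaCl and ethanol, also for 120 min, or were controls of other days. By replicate, MMS was at 0.12, 0.12 and 0.14%, and NaCl at 10, 8 and 9%. Ethanol was at 15% on 2 arrays, and cisplatin at 500 and 650 ug, with no volume in the titles.

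Bleomycin is a glycopeptide antibiotic that binds iron and oxygen and cuts DNA, leaving single-strand and double-strand breaks with damaged ends. In yeast, breaks are sensed by the kinases Mec1 and Tel1, which act through Rad53 and Dun1. Dun1 relieves the repressor Crt1 (gene RFX1) at genes for ribonucleotide reductase, the enzyme that makes DNA precursors. A cell with broken DNA also halts before or within mitosis, and the genes that a newborn daughter cell uses to separate from its mother are normally switched on only after mitosis.

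The 6 arrays resembled each other closely. Signals correlated at 0.9476 to 0.9875 among the bleomycin arrays, at 0.9771 to 0.9876 among their controls, and at 0.9666 to 0.9789 between a bleomycin array and its control. Of 7 measured a-cell markers none was called and 5 were lower on all 3 days, against 25.2% of named genes. BAR1, the protease that cleaves alpha-factor, lay between 7.04 and 7.37 with bleomycin and between 8.29 and 8.37 in controls, and the a-factor gene MFA1 between 12.03 and 12.88 with bleomycin and between 11.86 and 12.02 in controls on the log2 signal scale. None of 4 measured alpha-cell markers was called. The receptor gene STE3 lay between 3.62 and 4.19 with bleomycin and between 3.67 and 4.02 in controls, and SAG1 between 6.32 and 7.05 with bleomycin and between 6.23 and 6.58 in controls. MET17 and URA3, which the strain lacks, stayed at or below 4.04 with bleomycin and 4.09 in controls. LEU2, also lacking, gave 5.29 to 5.71 with bleomycin and 5.12 to 6.18 in controls. The control probe set at the 5′ end of the actin transcript ACT1 read 6.19, 9.42 and 9.00 on bleomycin arrays 1, 2 and 3 and 5.24, 9.95 and 9.46 on their controls. Day 1 therefore stood apart in both groups at the 5′ end, and the 3′ end did not (11.56 to 11.76 with bleomycin, 11.67 to 11.89 in controls). The part of this in the results was not tested.

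With bleomycin, 60 probe sets rose and 17 fell, which is 0.830% of those tested (0.647% higher and 0.183% lower). The test was limma's moderated test on the mean of the 3 same-day differences, and a call was an adjusted p under 0.05 after Benjamini-Hochberg adjustment over all 9275. Of the rises, 54 probe sets belonged to 1 named gene, and of the falls 16 did. Most changes were sizeable: 57 of the 60 rises and all 17 falls were at least 2-fold, and 11 rises and 10 falls were at least 4-fold. All 77 moved the same way on the 3 days with no overlap between the groups, against 18.8% of all probe sets whose groups did not overlap. The 77 were called on the mean of these same 3 days, which favours such probe sets, so this is a description. The median difference over all probe sets was -0.01. The calls depended on having 3 days. Without the day of bleomycin replicate 1 there were 17 rises and 9 falls, without replicate 2 there were 9 and 9, and without replicate 3 there were 14 and 8. In all 3 of these reduced fits 16 probe sets were called, 15 of them named: HUG1, NCA3, PHM8, CPP3, HXT5, SPG1, CRS5 and YLR297W rose, and PIR1, DSE2, EGT2, DSE1, SUN4, SCW11 and ADE17 fell.

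**Figure D1:**
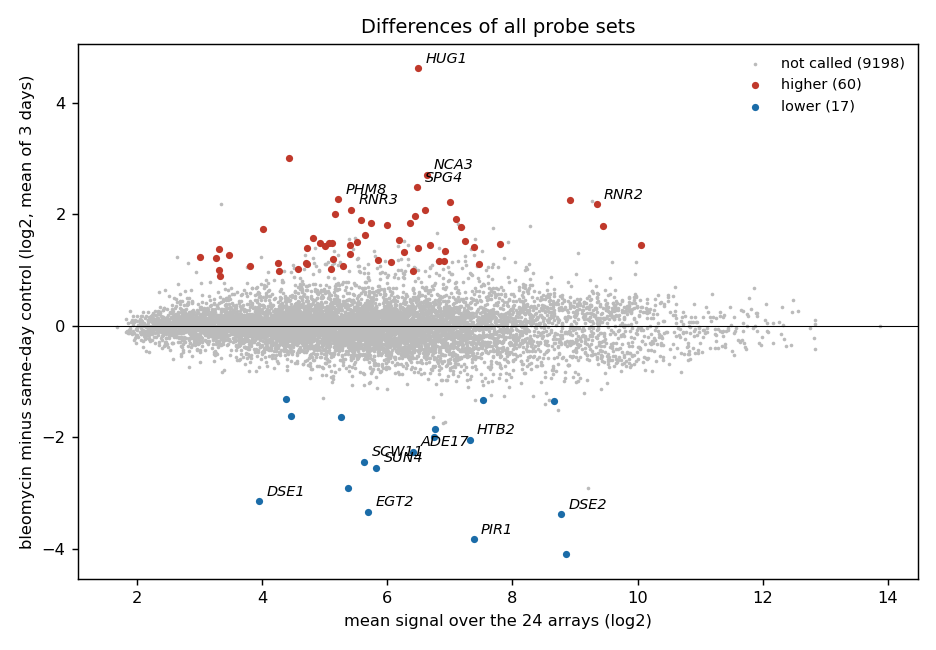
Mean difference between bleomycin and same-day control (vertical axis, log2) against mean signal over the 24 arrays (horizontal axis, log2) for 9275 probe sets. The 60 that rose are red, the 17 that fell are blue, and HUG1 at 4.62 stands highest.

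The strongest rise was in the damage regulon. HUG1, a small protein made after DNA damage or stalled replication that inhibits ribonucleotide reductase, had signals of 10.18, 10.26 and 10.68 with bleomycin, against 5.70, 5.83 and 5.73 in the same-day controls. The groups lay far apart on every day. The difference was 4.62 ± 0.237 (SE, n = 3 days) on the log2 scale, or 24.6-fold (limma adjusted p = 1.04e-06), and the call was kept without any 1 day (largest adjusted p = 8.14e-05). As for every ± here, the spread behind this SE was pooled over all 5 agents, not taken from the 3 bleomycin days alone.

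The ribonucleotide reductase subunits rose in part. RNR3, the large subunit normally made only after damage, read 6.04, 6.98 and 7.39 with bleomycin, against 4.64, 4.77 and 4.76 in controls. The groups did not overlap, and the lowest bleomycin array was that of day 1. The difference was 2.08 ± 0.277 (SE, n = 3 days; limma adjusted p = 0.00286), and RNR3 stayed called without bleomycin replicate 1 (adjusted p = 0.00858) but not without replicate 2 (0.0616) or 3 (0.0731). RNR2, the small subunit that carries the radical, had 11.52, 11.56 and 11.75 with bleomycin, against 9.30, 9.44 and 9.53 in controls. The groups did not overlap, and RNR2 moved nearly alike on each day. The difference was 2.19 ± 0.399 (SE, n = 3 days; limma adjusted p = 0.0233). The call was lost without replicate 1, 2 or 3 (adjusted p of 0.181, 0.219 and 0.256).

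RNR4, the partner of RNR2 in the small subunit, had 11.08, 10.81 and 11.01 with bleomycin, against 9.44, 9.10 and 9.00 in controls. These groups did not overlap either, yet the difference of 1.79 ± 0.656 (SE, n = 3 days) was not called (limma adjusted p = 0.493). The spread behind this SE was pooled over all 5 agents. In the fit of the 6 arrays alone the adjusted p of RNR4 was 0.000860. RNR1, the usual large subunit, differed by 0.78 ± 0.365 (limma adjusted p = 0.783).

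Of 18 measured genes in the list of the damage regulon, 4 rose and none fell, against 0.937% and 0.283% of the 5656 named genes by their brightest probe set (1.22% either way). 14 of the 18 were higher on all 3 days, against 19.8% of named genes, and the list's median was 0.76 against -0.04 over all named genes. The members and the list were chosen with earlier results on these arrays in view, so the count is a description. The fourth called member was PLM2, a transcription factor of the S phase and damage response, at 1.28 ± 0.221 (SE, n = 3 days; limma adjusted p = 0.0185), and it lost its call without replicate 2 (adjusted p = 0.233) or 3 (0.286). With a pseudocount at the pooled 10th percentile PLM2 was 0.85 and still called. DUN1, the kinase that opens the reductase genes, gave 0.94 ± 0.273 and was not called (adjusted p = 0.224). RAD54, which remodels DNA during recombination, gave 0.74 ± 0.201 (adjusted p = 0.168). In the fit of the 6 arrays alone RAD54 was called (limma adjusted p = 0.0459).

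**Figure D2:**
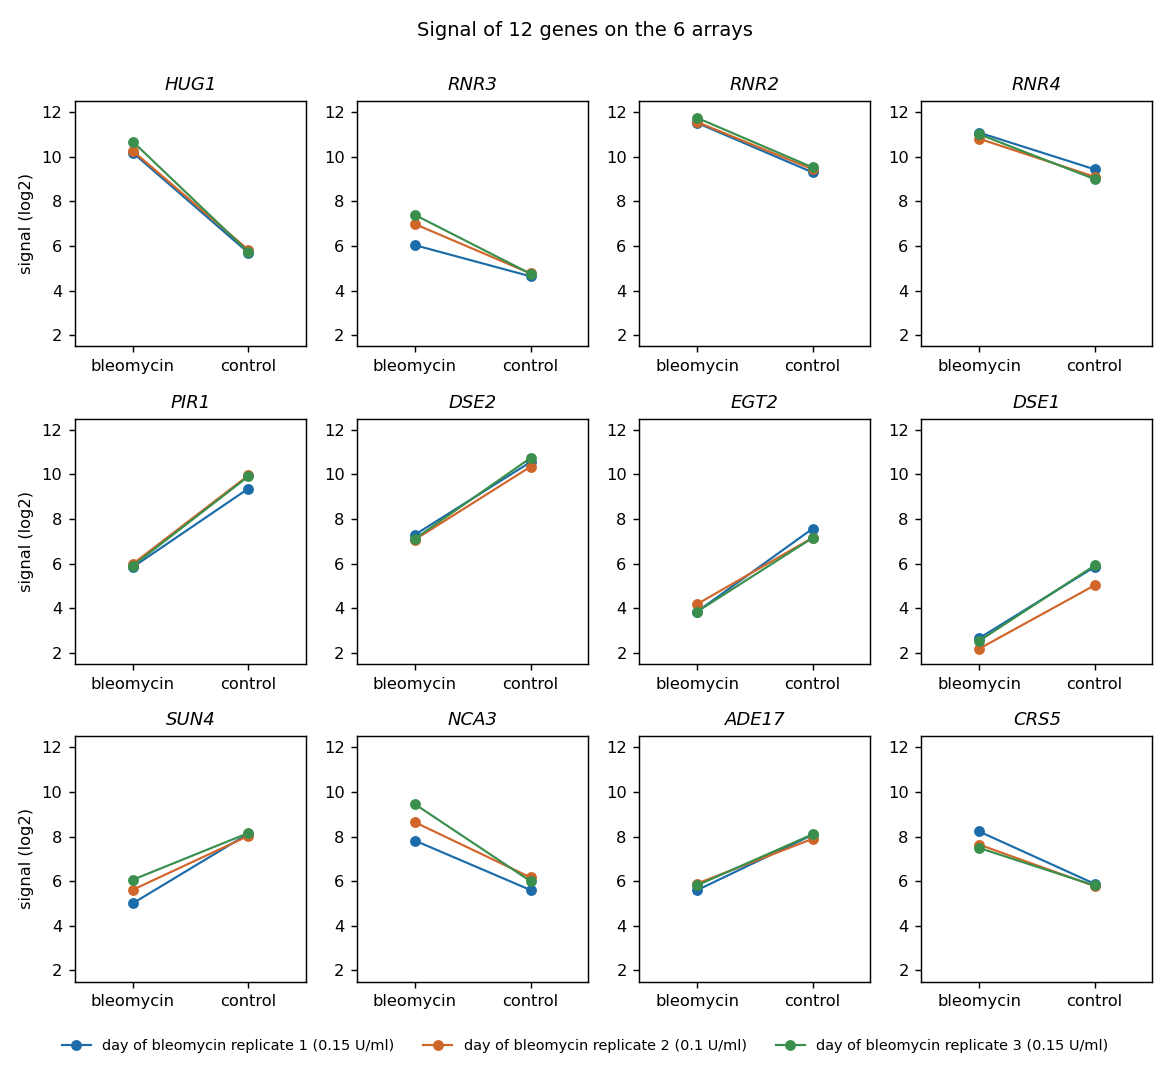
Signals of 12 genes (vertical axis, log2) on the bleomycin array (left) and the same-day control array (right), with 1 line and colour per day. HUG1, RNR2, RNR3, RNR4, NCA3 and CRS5 are higher with bleomycin on every day, and PIR1, DSE1, DSE2, EGT2, SUN4 and ADE17 are lower on every day.

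Genes that sense and repair the breaks themselves did not pass the test. None of 14 checkpoint kinases and sensors, 15 genes of homologous recombination, 6 of end joining and 13 of base excision and end processing was called. Their medians were 0.10, 0.06, -0.01 and 0.02, and 1.22% of all named genes were called either way. In lists this short, no call is close to that share and does not set these genes apart. Higher on all 3 days were 5, 6, 2 and 1 of them, against 19.8% of named genes, and 1 recombination gene was lower on all 3. RAD53, the central checkpoint kinase, differed by 0.54 ± 0.205 (SE, n = 3 days; limma adjusted p = 0.527). YKU70, which holds broken ends for joining, differed by 0.43 ± 0.326, and NTG1, a glycosylase that cuts at oxidised bases, by 0.37 ± 0.308 (limma adjusted p of 1 for each). RAD52, the mediator of recombination, differed by 0.23 ± 0.267. None of 8 genes for uptake, hydrolysis or tolerance of bleomycin was called, and their median was 0.05. LAP3, the bleomycin hydrolase, read 5.85, 6.40 and 6.61 with bleomycin and 6.11, 6.20 and 6.43 in controls. These overlapped, and the difference was 0.04 ± 0.239. BLM10, a proteasome activator named for bleomycin sensitivity, differed by 0.26 ± 0.266, and YAP1, the main factor of the oxidant response, by 0.15 ± 0.300.

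Genes of daughter-cell separation fell in numbers. Of 14 measured daughter-cell separation genes, 8 fell and none rose, against 0.283% and 0.937% of named genes, and the list's median was -2.21. All 14 were lower on all 3 days, against 25.2% of named genes. DSE2, a secreted glucanase-like protein that thins the wall on the daughter's side, had 7.30, 7.08 and 7.12 with bleomycin, against 10.55, 10.34 and 10.74 in controls, a 10.4-fold fall (-3.38 ± 0.252, SE, n = 3 days; limma adjusted p = 2.25e-05). Every bleomycin array lay far below every control array. In bulk RNA, fewer cells at the daughter stage and less RNA per such cell cannot be told apart.

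EGT2, a cell wall protein of early G1, read 3.85, 4.18 and 3.85 with bleomycin, against 7.57, 7.16 and 7.15 in controls (-3.34 ± 0.245; limma adjusted p = 2.25e-05). The groups did not overlap. DSE1, another daughter-specific protein, read 2.66, 2.18 and 2.54 with bleomycin, against 5.85, 5.03 and 5.92 in controls (-3.14 ± 0.319; limma adjusted p = 0.000416). The bleomycin signals of DSE1 lay under the pooled 10th percentile of all signals (3.05), and with that percentile added as a pseudocount the difference was -2.05, so its size is uncertain. DSE4, an endoglucanase, read 3.76, 3.78 and 3.68 with bleomycin, against 6.59, 6.42 and 6.95 in controls (-2.91 ± 0.440; limma adjusted p = 0.00887).

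SUN4, a wall glucanase needed for septation, fell by 2.54 ± 0.286 on the log2 scale (limma adjusted p = 0.000825), and SCW11, a further glucanase, fell by 2.44 ± 0.202 (limma adjusted p = 5.13e-05). AMN1, which in daughters turns off the mitotic exit network, fell by 1.99 ± 0.335 (limma adjusted p = 0.0171), and DSE3 fell by 1.32 ± 0.245 (limma adjusted p = 0.0254). DSE1, DSE2, EGT2, SCW11 and SUN4 were called without any 1 day, but SUN4 and DSE1 were not called when the day was left out of the model (no replicate block). SUN4 was then -0.89 (limma adjusted p = 0.822), or -1.01 (0.848) with the day as a random block, and DSE1 was -2.14 (0.0782) or -2.23 (0.0537). The 11 control arrays ran from 4.16 to 8.34 for SUN4 and from 2.71 to 5.92 for DSE1. In the reduced fits, AMN1, DSE3 and DSE4 were called in none (largest adjusted p of 0.181, 0.292 and 0.126). CTS1, the chitinase that dissolves the septum, had a large difference without a call. Its signals were 7.37, 7.93 and 8.42 with bleomycin, against 10.67, 10.78 and 11.02 in controls. The groups were well apart, but the pooled spread of CTS1 across agents was wide (-2.91 ± 0.787; limma adjusted p = 0.167). ASH1, the daughter-specific repressor of HO, gave -1.10 ± 0.237 (limma adjusted p = 0.0556).

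Genes of other cell cycle phases had few calls. Of 16 measured M/G1 genes of Swi5 and Mcm1, 1 rose (PIR3) and 1 fell (PIR1), against 0.937% and 0.283% of named genes, with a median of -0.15 and 6 lower on all 3 days. None of 19 measured G2/M genes of Fkh2, Ndd1 and Mcm1 was called, with a median of -0.17, and 10 of 19 were lower on all 3 days, against 25.2% of named genes. CLB2, the main mitotic cyclin, read 2.74, 3.01 and 2.96 with bleomycin and 3.17, 3.17 and 3.24 in controls. Its probe set was dim in both groups, and the difference was -0.29 ± 0.128 (limma adjusted p = 0.691). SWI5, a transcription factor active at the end of mitosis, differed by -0.50 ± 0.198 (limma adjusted p = 0.595). None of 23 G1/S genes of SBF and MBF was called (median -0.07), and the most negative was SRL1, a wall mannoprotein (-1.20, limma adjusted p = 0.775). FAR1, which holds G1 cyclin kinase in check after pheromone, fell by 1.63 ± 0.330 (limma adjusted p = 0.0418) and was the only call among 18 mating genes. FAR1 lost the call without replicate 1, 2 or 3 (adjusted p of 0.29, 0.306 and 0.316), with the day as a fixed block over 24 arrays (0.0627) and with no replicate block, where it was -0.59 (0.829). HO, the mating-type endonuclease gene, is defective in laboratory strains but transcribed in late G1 mother cells; it fell by 1.62 ± 0.223 (limma adjusted p = 0.00377) and was named after its value was seen.

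Among 4 measured histone genes 1 fell, HTB2, against 0.283% of named genes. All 4 were lower on every day, against 25.2% of named genes, with a median of -0.80. HTB2, 1 of the genes for histone H2B, read 6.83, 6.56 and 6.68 with bleomycin, against 8.45, 8.76 and 8.99 in controls. The groups were separate, and the difference was -2.04 ± 0.351 (limma adjusted p = 0.0181), lost without replicate 1, 2 or 3 (adjusted p of 0.0879, 0.218 and 0.247) and with no replicate block (-1.29, 0.481). HTB1, its partner, differed by -0.70 ± 0.491 and was not called.

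The cell wall families split. PIR1, a wall protein with internal repeats that crosslink it to glucan, showed the largest fall of a named gene, with 5.85, 5.99 and 5.91 under bleomycin, against 9.37, 9.96 and 9.91 in controls (-3.83 ± 0.277, 14.2-fold; limma adjusted p = 2.25e-05). With no replicate block PIR1 was -2.53 and not called (limma adjusted p = 0.0785), nor was it with a random block (-2.63, 0.0569). PIR3, its relative and the gene beside it, rose by 1.28 ± 0.267 (limma adjusted p = 0.0477), a call lost without replicate 1, 2 or 3 (adjusted p of 0.167, 0.229 and 0.649) and with the day as a fixed block over 24 arrays (0.0729). In the SUN family, SUN4 fell while NCA3 rose. NCA3, first linked to mitochondrial ATP synthase and similar to wall glucanases, read 7.82, 8.64 and 9.45 with bleomycin, against 5.60, 6.17 and 6.003 in controls (2.71 ± 0.278; limma adjusted p = 0.000416). It was called without any 1 day, and its 3 daily differences of 2.22, 2.47 and 3.45 were among the most widely spaced of the called genes. The other measured members, UTH1, HSP150, CIS3 and SIM1, were not called. The difference between members of a family was not itself tested.

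General stress genes were higher with bleomycin at moderate size. Of 26 measured genes of Msn2 and Msn4, the factors of the environmental stress response, 7 rose and none fell, against 0.937% and 0.283% of named genes. 25 of 26 were higher on all 3 days, against 19.8% of named genes, with a median of 0.88. HSP26, a small heat shock protein, read 9.09, 9.28 and 9.62 with bleomycin, against 6.84, 6.95 and 7.50 in controls (2.23 ± 0.352; limma adjusted p = 0.0112). DDR2, a small stress protein first found through DNA damage, rose by 1.80 ± 0.285 (limma adjusted p = 0.0112), RTN2, a reticulon of the endoplasmic reticulum, by 1.73 ± 0.248 (0.00534), and CTT1, the cytosolic catalase, by 1.51 ± 0.279 (0.0249). The groups did not overlap for any of these, but none of the 4 was called in every reduced fit (largest adjusted p of 0.148 for HSP26, 0.179 for DDR2, 0.0876 for RTN2 and 0.322 for CTT1). CTT1 was also not called with the day as a fixed block over 24 arrays (adjusted p = 0.07). HSP12, a membrane-protecting stress protein, had 11.19, 11.44 and 11.13 with bleomycin, against 8.89, 8.71 and 9.41 in controls, and was not called (2.25 ± 0.569, limma adjusted p = 0.131). Its groups did not overlap, and its daily differences were 2.30, 2.72 and 1.72. The spread behind this SE was pooled over all agents, and with NaCl HSP12 ran from -3.75 to 0.17.

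Genes of stationary phase and quiescence included rises as well. Of 14 measured, 4 rose and none fell, against 0.937% and 0.283% of named genes, with a median of 0.78. 12 of 14 were higher on all 3 days, against 19.8% of named genes. SPG4, named for survival in stationary phase, had 8.98, 9.03 and 8.76 with bleomycin, against 6.46, 6.03 and 6.82 in controls (2.49 ± 0.444; limma adjusted p = 0.0215). It was called in no reduced fit (largest adjusted p = 0.276). SPG1, a mitochondrial protein of the same class, had 7.19, 6.68 and 7.00 with bleomycin, against 5.10, 4.84 and 4.92 in controls (2.00 ± 0.229; limma adjusted p = 0.000861), and was called in every reduced fit. NQM1, a relative of transaldolase, rose by 1.77 ± 0.327 (limma adjusted p = 0.0246), and MOH1 by 1.48 ± 0.232 (0.0109); both lost the call without replicate 1, 2 or 3 (largest adjusted p of 0.25 and 0.182), and NQM1 did with no replicate block (1.27, adjusted p = 0.126). None of 17 trehalose and glycogen genes was called, though 11 were higher on all 3 days (median 0.49). GAC1, which directs a phosphatase to glycogen synthase, differed by 1.35 ± 0.287 (limma adjusted p = 0.0544).

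**Figure D3:**
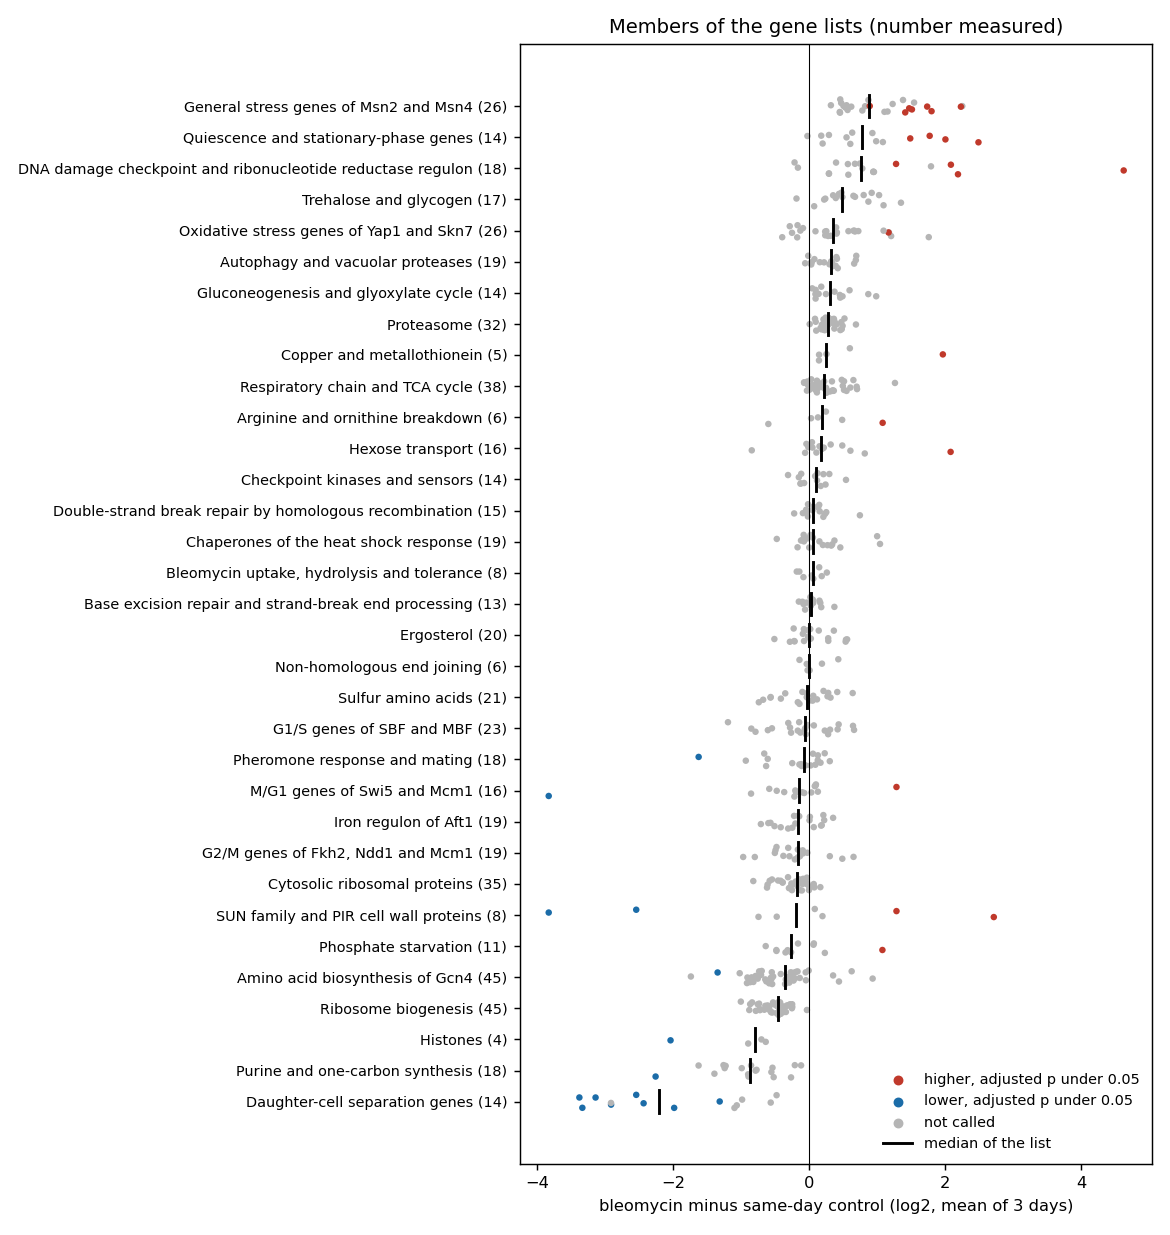
Each point is 1 gene of a list (rows, with the number measured), placed by its mean difference between bleomycin and same-day control (horizontal axis, log2). Red points rose, blue points fell, grey points were not called and black bars are medians, from 0.88 for the general stress genes to -2.21 for the daughter-cell genes.

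Among metal and oxidant genes, single members rose. CRS5, a copper-binding metallothionein, had 8.23, 7.64 and 7.49 with bleomycin, against 5.88, 5.78 and 5.81 in controls (1.96 ± 0.233; limma adjusted p = 0.00108), and was called in every reduced fit. The groups were 1.68 or more apart on each day, and CRS5 was the only call among 5 copper genes (median 0.25). Of all named genes, 0.937% were called higher and 0.283% lower. Among 26 oxidative stress genes of Yap1 and Skn7 only GPX1, a glutathione peroxidase, was called (1.17 ± 0.240, limma adjusted p = 0.0461). Of the 26, 13 were higher and 4 lower on all 3 days, against 19.8% and 25.2% of named genes, with a median of 0.35. GPX1 lost the call without replicate 1, 2 or 3 (largest adjusted p = 0.449). GTT1, a glutathione transferase, differed by 1.76 ± 0.448 without a call (limma adjusted p = 0.139). None of 19 iron regulon genes of Aft1 was called (median -0.16); the largest in size was FET3, the iron-uptake oxidase, at -0.71 ± 0.453.

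Carbon transport gave HXT5, a hexose transporter of slow-growing cells, with 8.34, 8.02 and 7.79 under bleomycin, against 6.22, 5.84 and 5.86 in controls (2.08 ± 0.218; limma adjusted p = 0.000466). It was called in every reduced fit and was the only call among 16 hexose genes (median 0.17). Of all named genes, 0.937% were called higher and 0.283% lower. None of 14 gluconeogenic genes (median 0.31), 38 respiratory and TCA genes (0.21), 19 autophagy genes (0.32), 32 proteasome genes (0.28), 19 heat shock chaperones (0.05) or 20 ergosterol genes (0.00) was called. In single lists PUT1, which starts proline breakdown, rose by 1.08 ± 0.223 (limma adjusted p = 0.0473), the only call among 6 genes of arginine and ornithine breakdown, and PHM7 rose by 1.08 ± 0.211 (0.0342), the only call among 11 phosphate genes. PUT1 and PHM7 lost their calls without replicate 1, 2 or 3 (largest adjusted p of 0.374 and 0.489), and PHM7 did on the deposited values as they are (0.053) and was 0.72 with the pseudocount. PHM8, a nucleotidase that rises in phosphate-starved cells and belongs to no list here, had 6.81, 7.17 and 6.95 with bleomycin, against 4.50, 4.64 and 4.99 in controls (2.27 ± 0.282; limma adjusted p = 0.00164), and was called in every reduced fit. CPP3 (YDR034W-B), a small protein, had 10.66, 10.43 and 10.45 with bleomycin, against 8.09, 8.28 and 8.42 in controls (2.25 ± 0.247; limma adjusted p = 0.0007), also in every reduced fit. FMP16, a mitochondrial protein, rose by 1.91 ± 0.301 (limma adjusted p = 0.0112), a call lost without replicate 1, 2 or 3 (largest adjusted p = 0.179).

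Genes of ribosome and amino acid synthesis lay lower by small amounts. None of 45 ribosome biogenesis genes was called, but 34 of 45 were lower on all 3 days, against 25.2% of named genes, with a median of -0.46. The largest was RRP9, a small nucleolar protein of rRNA processing, at -1.01 ± 0.358 (limma adjusted p = 0.459). Of 35 ribosomal protein genes, 21 were lower on all 3 days and none was called (median -0.18). Amino acid synthesis under Gcn4 had 28 of 45 lower on all 3 days, with 1 call, against 0.283% of named genes called lower. The call was HIS1, the first enzyme of histidine synthesis (-1.35 ± 0.234, limma adjusted p = 0.0188). It was lost without replicate 1, 2 or 3 (adjusted p of 0.136, 0.264 and 0.182) and with no replicate block (-0.97, 0.218). Among 21 sulfur amino acid genes none was called (median -0.04).

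In purine and one-carbon synthesis 1 of 18 measured genes fell, against 0.283% of named genes. 15 of 18 were lower on all 3 days, against 25.2% of named genes, with a median of -0.87. ADE17, which makes the purine ring's last steps with ADE16, had 5.60, 5.89 and 5.81 with bleomycin, against 8.08, 7.90 and 8.10 in controls (-2.26 ± 0.268, 4.79-fold; limma adjusted p = 0.00108). The groups were apart by over 2 log2 units on each day, and the call was kept in every reduced fit. ADE17 lost it with no replicate block (-1.26; limma adjusted p = 0.414) and with a random block (-1.32; 0.35), the 11 control arrays running from 5.20 to 8.19. ADE16 itself differed by -0.12 ± 0.378. SHM2, the cytosolic serine hydroxymethyltransferase that feeds the one-carbon pool, had 5.80, 6.34 and 6.41 with bleomycin, against 8.24, 7.52 and 7.67 in controls, and was not called (-1.63 ± 0.535; limma adjusted p = 0.351).

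The called genes also differed in how evenly they moved over the days. SVS1, a wall protein named for vanadate sensitivity, fell by 1.84 ± 0.359 (limma adjusted p = 0.0341), lost without replicate 1, 2 or 3 (adjusted p of 0.357, 0.25 and 0.163) and with no replicate block (-1.03, 0.62). GSP2, a Ran GTPase of nuclear transport, rose by 1.85 ± 0.335 (limma adjusted p = 0.0233). The daily differences of GSP2 were 1.08, 2.59 and 1.89, the widest range among the called named genes. It lost its call without replicate 2 (adjusted p = 0.307) or 3 (0.247). PHO92, which destabilises methylated and PHO4 mRNAs, gave 1.92, 0.97 and 0.82 across days (1.24 ± 0.242, limma adjusted p = 0.0341), with the high value on day 1. The call of PHO92 was lost without replicate 1, 2 or 3 (largest adjusted p = 0.357) and without a variance trend (0.0516). With the pseudocount PHO92 was 0.65. SVS1 gave -2.47, -1.70 and -1.35, and SPG4 2.52, 3.00 and 1.94.

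The lower dose, 0.1 U/ml, was used on 1 day only, so dose and day cannot be told apart. The median difference of the 60 rises was 1.49 on that day, against 1.46 and 1.49 on the days of 0.15 U/ml. For the 17 falls the median was -2.15 at 0.1 U/ml, against -2.50 and -2.29 at 0.15 U/ml. Set against the mean of the other 2 days, the difference at 0.1 U/ml was smaller in size for 30 of 60 rises and for 12 of 17 falls. These probe sets were chosen by the mean of the same 3 days, so the values are a description.

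**Figure D4:**
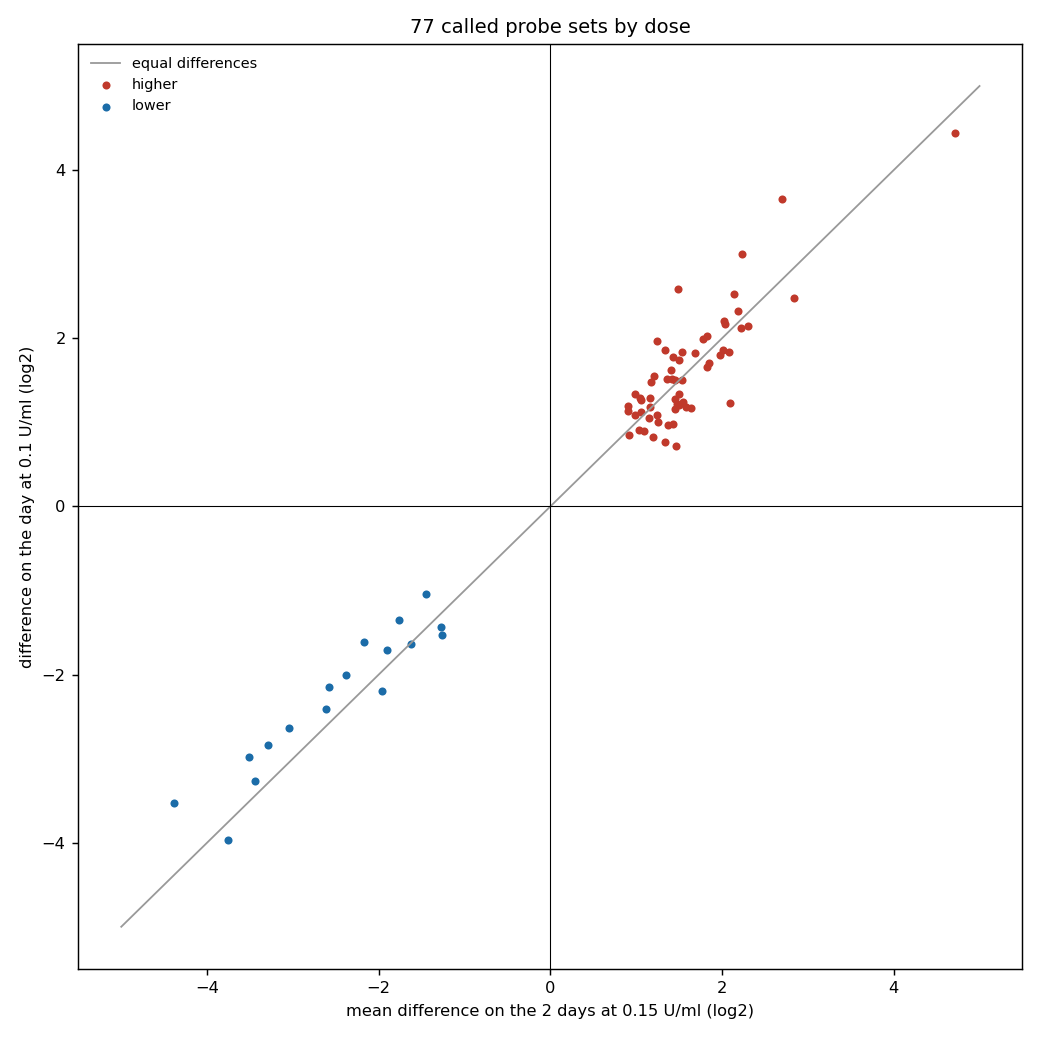
Differences of the 77 called probe sets on the day at 0.1 U/ml (vertical axis, log2) against the mean of the 2 days at 0.15 U/ml (horizontal axis, log2), with the line of equal differences in grey. Rises (red) scatter around the line, and 12 of 17 falls (blue) lie nearer to 0 at 0.1 U/ml.

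MMS, which methylates DNA bases, is the other damaging agent with 3 arrays and shares no control array with bleomycin, so the differences from control could be contrasted. By their titles, the MMS arrays and their controls date from July and August, and the bleomycin arrays and theirs from October. Agent and period therefore cannot be told apart in this contrast. Bleomycin and MMS differences from control differed at 2773 probe sets, 29.9% of those tested, with 1219 higher and 1554 lower after bleomycin. HUG1 rose by 4.62 with bleomycin and by 2.87 with MMS, a difference of 1.75 ± 0.336 (SE; limma adjusted p = 0.00277). The HUG1 signal was 10.18 to 10.68 after bleomycin and 7.49 to 7.59 after MMS, while controls were at 5.70 to 5.83 for bleomycin and at 4.43 to 5.06 for MMS. RNR3 differed in the same direction (1.31), with signals of 6.04 to 7.39 after bleomycin and 5.76 to 5.93 after MMS. RNR2 differed by -1.69, but its signals were 11.52 to 11.75 after bleomycin and 11.32 to 11.53 after MMS, and the controls were 9.30 to 9.53 for bleomycin and 7.12 to 7.95 for MMS. HSP26 differed by -2.99, with signals of 9.09 to 9.62 after bleomycin and 10.18 to 10.46 after MMS, and controls of 6.84 to 7.50 for bleomycin and 4.99 to 5.24 for MMS. NCA3 differed by -1.69, with signals of 7.82 to 9.45 after bleomycin and 9.40 to 9.46 after MMS, and controls of 5.60 to 6.17 for bleomycin and 4.86 to 5.26 for MMS.

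For several genes that fell with bleomycin, the control arrays of the 2 agents differed. PIR1 differed by -3.50 between the agents. Its signal was 5.85 to 5.99 after bleomycin and 6.08 to 6.46 after MMS, so the treated arrays were near each other, and the same-day controls were 9.37 to 9.96 for bleomycin and 6.38 to 7.15 for MMS. ADE17 differed by -2.97, with treated signals of 5.60 to 5.89 after bleomycin and 6.22 to 6.44 after MMS, and controls of 7.90 to 8.10 for bleomycin and 5.20 to 6.09 for MMS. SUN4 differed by -2.80, with controls at 8.03 to 8.16 for bleomycin and 4.16 to 4.44 for MMS. DSE1 differed by -3.89 and was also lower in treated signal (2.18 to 2.66 after bleomycin, 4.01 to 4.66 after MMS). The ACT1 control probe sets moved with this comparison. The 5′ set read 8.35 to 8.83 on MMS arrays and 4.76 to 5.93 on their controls, the middle set 8.27 to 8.57 on MMS arrays and 4.48 to 5.06 on their controls, and the 3′ set 11.32 to 11.39 on MMS arrays and 9.37 to 11.19 on their controls. The part of this in the differences was not tested.

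CRS5 and SPG1 differed from MMS in the treated arrays themselves. CRS5 differed between the agents by 2.64, with treated signals of 7.49 to 8.23 after bleomycin and 5.88 to 6.09 after MMS. SPG1 differed by 2.41, with treated signals of 6.68 to 7.19 after bleomycin and 4.59 to 4.77 after MMS.

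NaCl and cisplatin arrays share control arrays with bleomycin on 2 days and 1 day, so their values stand side by side without a test. HUG1 differed from its same-day control by 2.44 with cisplatin, 0.37 with NaCl and -0.24 with ethanol. PIR1 differed by -2.69 with cisplatin, -2.78 with NaCl and -0.81 with ethanol, and DSE2 by -1.06, -1.37 and -0.94. Other daughter-cell separation genes were below control with NaCl and cisplatin too. With NaCl, DSE1 differed by -2.85, EGT2 by -2.48, SUN4 by -2.36, DSE4 by -2.15 and CTS1 by -3.36, and with cisplatin they differed by -1.94, -2.18, -2.08, -1.51 and -0.77. Over the NaCl arrays, each at another dose, DSE1 ran from -3.50 to -2.26, EGT2 from -2.60 to -2.34 and SUN4 from -2.85 to -1.56. DSE4 ran there from -2.92 to -1.03 and CTS1 from -4.94 to -0.60. NaCl replicates 2 and 3 were among the arrays of low ACT1 3′ signal, and the part of this was not tested. With ethanol DSE1 differed by 1.145 and DSE4 by 0.87, while the mean differences of EGT2, SUN4 and CTS1 were under 0.1 in size. The 2 ethanol arrays went opposite ways for EGT2 (0.31 and -0.48), SUN4 (-0.16 and 0.14) and CTS1 (0.41 and -0.42). ADE17 differed by -2.21 with cisplatin, -2.89 with NaCl and 0.54 with ethanol, and CRS5 by 1.03, 0.75 and 0.37.

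**Figure D5:**
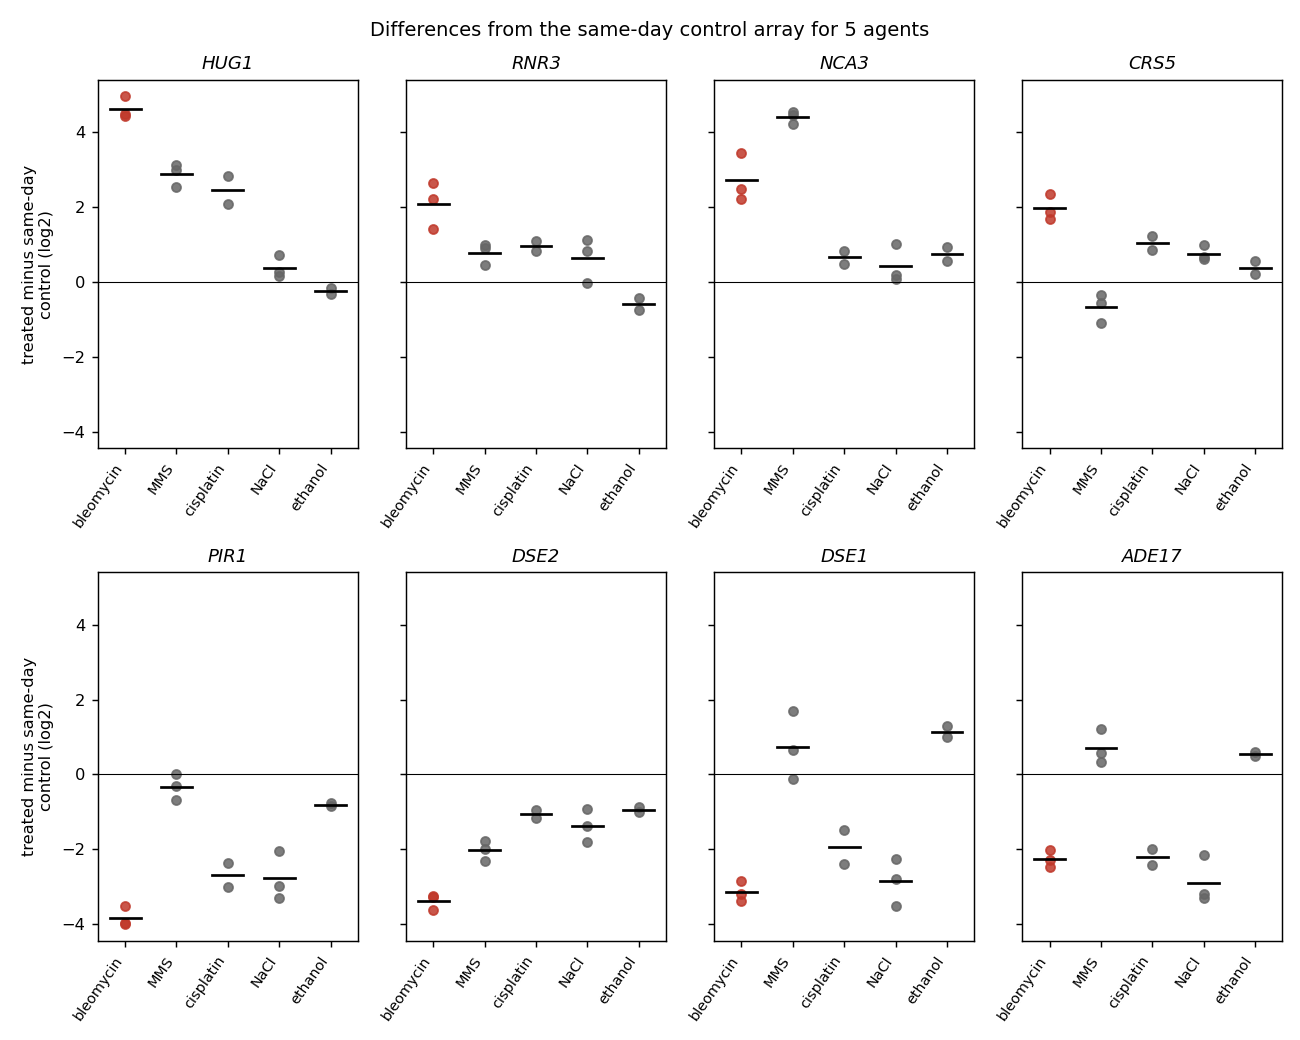
Differences of 8 genes from the same-day control array (vertical axis, log2) for each agent (horizontal axis), 1 point per array and a black bar for the mean. Bleomycin, in red, has the highest points for HUG1 and CRS5 and the lowest for PIR1 and DSE2.

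A gene on the array may have a near relative, and the relatives of the called genes were set beside them. These pairs were chosen after the values were seen, and the difference within a pair was not tested. SOL4, a 6-phosphogluconolactonase, rose by 1.47, and SOL3 differed by -0.16. BDH2, a butanediol dehydrogenase-like protein, rose by 1.58 and BDH1 differed by 0.13. NQM1 rose by 1.77 and the main transaldolase TAL1 differed by -0.13, and GPM2, a homologue of phosphoglycerate mutase, rose by 1.48 while GPM1 differed by 0.20. TKL2, a transketolase, has 3 probe sets that disagree: the brightest gave 1.39 (limma adjusted p = 0.0757), another rose by 1.12 (0.0477), and the dimmest gave 0.61. TKL1, the main transketolase, differed by -0.78.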

How the data were processed

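Transcript levels were measured on 24 one-colour Affymetrix S98 arrays from labelled cRNA of poly(A)+ RNA, per the labels' protocols. The deposited values were log2 signals from 1.42 to 14.4, and how the authors summarised and normalized them is not given in the sources used here. The number of arrays, not a read depth, limits the precision.

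Here the values were quantile-normalized, and each treated array was taken as its difference from the control array of its day (13 differences). limma 3.58.1 in R 4.3.3 was fitted with 1 coefficient per agent, 8 residual degrees of freedom and a variance prior with a trend on mean signal (prior df 4.41), and p-values were Benjamini-Hochberg adjusted over 9275 probe sets at 0.05. The pairing came from the dates in the titles. For ethanol replicate 1 the title has the day and month of its control but another year, so that match was assumed. Same-day deviations of bleomycin and control arrays correlated at 0.517, 0.316 and 0.528. No label says that arrays came from separate cultures, so p-values measure the spread between arrays.

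Of 9275 probe sets, 6504 had 1 gene, 328 several and 2443 were not in the probe table and so are unnamed here; 315 of 5656 genes had several, and the brightest stood for the gene. The rule named the 12 largest called changes each way that kept their sign on all days, up to 4 called members each way of a list or the 2 largest where none was called, a preset group, the 6 largest differences from MMS each way, and 6 genes of widest daily range. Members and 37 lists were chosen with earlier results of these data known. The procedure was tested on simulated data for bleomycin over 9275 probe sets, and recovered 38.8%, 92.5% and 98.5% of changes of 1, 2 and 3 on the log2 scale, with 2.55% false among its calls. The simulated noise was independent between arrays, had no day effect and had the same spread for every agent. These rates were not tested where the spread differs between agents, as it does here for some genes. Values after ± are limma's SE of the mean of 3 days or, where stated, of the difference from MMS. The spread behind them was moderated and pooled over all 5 agents, so it is not the spread of the 3 bleomycin days alone. Alternatives changed the normalization, pseudocount, filter on dim probe sets, probe sets per gene, arrays fitted, day block, variance prior, minimum size, control arrays and days left out. Figures were drawn with matplotlib 3.10.9 in Python 3.11.15.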

Additional observations from a re-analysis of the deposited data

Results flagged for a closer look

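The differences from control after bleomycin and after MMS differed at 2773 probe sets (29.9% of those tested, limma contrast, adjusted p under 0.05), and the named ones are given here as bleomycin minus MMS on the log2 scale. The 6 largest on the positive side were PHO3 (5.08), SNR72 (5.07), SNR63 (4.51), SNR128 (4.49), SNR56 (4.46) and DYN2 (4.46), where MMS arrays lay below their controls. PHO3, an acid phosphatase, had 9.43 to 11.04 after bleomycin and 5.80 to 5.96 after MMS. The small nucleolar RNA genes SNR72, SNR63, SNR128 and SNR56 guide modification or processing of rRNA, and SNR128 had 8.80 to 9.59 after bleomycin and 5.37 to 5.60 after MMS. The 6 most negative were ISU2 (-6.55), ENO2 (-6.04), GTT2 (-5.89), ATR1 (-5.68), SED1 (-5.66) and YNL208W (-5.46), where MMS arrays lay above their controls. The control arrays of the MMS days were low for several of these: ENO2, a glycolytic enolase, was at 6.27 to 7.26 there and at 11.63 to 11.83 on the bleomycin days. With no replicate block ENO2 was -0.93 (limma adjusted p = 0.78) and SED1 -1.49 (0.575), neither called. The part of the controls in the differences was not tested.

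Of the 24 largest called changes with bleomycin, 19 differed from MMS. The 24 were picked by their bleomycin differences, and the same values enter this contrast. That choice favours differences from MMS, so the count is a description. HUG1 (1.75), SPG4 (2.74), CPP3 (1.45), RNR3 (1.31), SPG1 (2.41), CRS5 (2.64) and FMP16 (1.22) had larger differences from control after bleomycin. NCA3 (-1.69), HSP26 (-2.99) and RNR2 (-1.69) had smaller differences from control after bleomycin; for RNR2 the treated signals were 11.52 to 11.75 after bleomycin and 11.32 to 11.53 after MMS, with controls at 9.30 to 9.53 for bleomycin and 7.12 to 7.95 for MMS. PIR1 (-3.50), DSE2 (-1.35), EGT2 (-1.27), DSE1 (-3.89), SUN4 (-2.80), SCW11 (-1.06), ADE17 (-2.97), SVS1 (-3.16) and FAR1 (-2.50) were lower after bleomycin relative to their controls. For each of these the controls were higher on the bleomycin days than on the MMS days. The treated signals of PIR1, DSE1, SCW11, ADE17 and SVS1 were lower after bleomycin, and those of EGT2 and FAR1 overlapped. For DSE2 they were higher after bleomycin (7.08 to 7.30) than after MMS (6.68 to 6.83). The same held for SUN4 (5.01 to 6.07 against 4.39 to 4.71). The part of the controls was not tested.

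2 control probe sets that no comparison used stood out on bleomycin array 3. The 18S rRNA set read 8.217, against 5.964 on the same-day control, and the 25S rRNA set read 11.12, against 7.169 there. The highest of the 11 control arrays were 5.964 and 7.368.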

How the results depend on the processing

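The fit by day is itself a replicate block, and 24 arrays with the day as a fixed block gave 59 rises, 16 falls and 2833 differences from MMS, 70 of the 77 calls being shared. With no replicate block there were 161 rises, 18 falls and 1414 differences from MMS, and with a random block 163, 19 and 1464. The falls were not the same ones: PIR1, DSE1, SUN4, ADE17, HTB2, SVS1, FAR1 and HIS1 lost their calls in both of these fits, as did the rise of NQM1. The deposited values gave 96 rises and median scaling 98. The 6 arrays alone gave 208 rises and 117 falls, and leaving out arrays of low ACT1 3′ signal 266 and 140 and 4225 differences from MMS; the mean of 5 control arrays of the same month gave 316 and 204. Each of these 3 settings called all 77. A minimum of 2-fold left 2 rises and 6 falls. Leaving out 1 bleomycin day gave 9 to 17 rises, 8 to 9 falls and 1350 to 1996 differences from MMS, and leaving out 1 MMS day gave 1614 to 2224. The arrays of low ACT1 3′ signal were NaCl replicates 2 and 3 and control replicate 11, the control of MMS replicate 2, so that setting also drops an MMS day; fewer samples are behind the reduced fits; the cause of the other moves was not tested. Among named genes, 1482 of 1727 recomputed values kept direction and call, 125 lost the call, 100 gained one and 20 turned sign, none of the last for a called gene. Without a replicate block these were DNL4 (-0.00359), SKY1 (0.20), ISU2 (0.044), RPL3 (0.47), RPL7A (0.45) and SAM1 (0.38). With a random block they were SKY1 (0.18), RPL3 (0.35), RPL7A (0.34) and SAM1 (0.27), and with the fixed block LEU2 (0.14) and LAP3 (-0.0088). With 1 bleomycin day left out, MET17 ran from -0.00792 to 0.136, REV3 from -0.029 to 0.422, LEU2 from -0.159 to 0.158, LAP3 from -0.0399 to 0.182 and SAG1 from -0.0291 to 0.513. Against the 5 controls MET17 (-0.00618) and LAP3 (-0.025) turned.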

Other observations

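The rises that belong to no list made up 31 of 53 raised genes by their brightest probe set, and 3 of 16 lowered genes belong to none. Of the 5656 named genes only 640 were in a list, so most genes of the array belong to none. The lists were chosen with earlier results of these data known, so these counts are a description. The genes given here were named after their values were seen. ECM4, a glutathione transferase of the omega class, had 6.84, 6.85 and 6.69 with bleomycin, against 5.05, 4.85 and 4.93 in controls (1.85 ± 0.238; limma adjusted p = 0.00221). Its neighbour YKR075C rose by 1.10, and a further pair of neighbours rose together, FMP48 (1.54) and MCO32 (1.12). YLR297W, an uncharacterised vacuolar protein, had 7.17, 7.06 and 6.97 with bleomycin, against 5.11, 5.03 and 5.38 in controls (1.89 ± 0.216; limma adjusted p = 0.000861) and was called in every reduced fit. Others were PAI3, a vacuolar protease inhibitor (1.48), AMS1, the vacuolar mannosidase (1.19), PLN1, a lipid droplet protein (1.17), and ATO2, an ammonium exporter (1.40).

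Some of the largest changes carry no name here. Probe set 5476_at had 4.70, 5.67 and 5.63 with bleomycin, against 9.57, 9.20 and 9.53 in controls, a fall of 17.1-fold (-4.10 ± 0.312; limma adjusted p = 2.25e-05) kept in every reduced fit. Probe set 3545_i_at had 5.96, 6.92 and 5.67 with bleomycin, against 2.03, 3.27 and 4.20 in controls (3.02 ± 0.470; limma adjusted p = 0.0109), with controls far apart from each other.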
